A study of Homo sapiens with 6 samples.

Results

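The genes described are MICA, MICB, ULBP1, ULBP2, ULBP3, ICAM1 and CD58, surface proteins of a tumor cell that natural killer (NK) cells recognize or adhere to. They are found by a list of gene symbols, a rule that uses no measured value, and all 7 were present among the 16390 genes listed in every library. Total RNA was sequenced from SW780, a cell line from human bladder cancer that represents the luminal type in the study. The 3 Control libraries came from SW780 cells without the drug, and the 3 RC48 libraries came from SW780 cells exposed to RC48 at 25 µg/ml. RC48 (disitamab vedotin) joins an antibody against ERBB2 to monomethyl auristatin E, an inhibitor of microtubules. All 6 libraries share the 1 cell line, the vehicle and the exposure time are not given in the sources used here, and the labels enter the exposure as a genotype. The comparison asks how RNA of the 7 genes differed between exposed and control tumor cells. No NK cells were part of the experiment.

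MICA, MICB and the ULBP proteins are stress-induced ligands of NKG2D, an activating receptor of NK cells and of many T cells. ICAM1 binds the integrin LFA-1, and CD58 binds CD2, so that both help a killer cell adhere to its target. Many of these ligands are held low in healthy epithelium, and enzymes at the cell surface can shed them, so RNA does not give the amount of protein displayed.

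Estimated counts summed to between 16453233 and 17988030 in the 6 libraries. Levels are given as CPM, counts scaled to library size after edgeR's TMM normalization, which follows a gene between libraries, or as TPM, which also divides by transcript length and serves to set genes beside each other. The libraries within a group were not alike. Compared in pairs by chi-square over 11139 genes, where a value per degree of freedom near 1 is sampling noise alone, Control libraries gave 1.47 to 12.4 and RC48 libraries 23.8 to 145. The log2 ratio to the Control mean followed the GC content of the transcripts in RC48 replicate 1 (Spearman's rho 0.747 across 13000 genes) and RC48 replicate 3 (0.582), and not in RC48 replicate 2 (-0.0178). Genes share the library in such a correlation and are not independent replicates. With the genes in 10 groups of 1300 by GC, in the lowest group the median log2 ratio was -0.92 in RC48 replicate 1 and -0.37 in RC48 replicate 3, and in the highest group it was 0.60 and 0.22. The main results are therefore also given from a fit that removes the GC trend of every library. Nothing in the labels says that the 3 libraries of a group came from separate cultures, so p-values measure the spread between these libraries, which may be technical.

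ICAM1 was the 1 gene of the 7 that passed the main test, and it rose about 6.0-fold after RC48 exposure. ULBP2 and MICA were higher in every RC48 library than in every Control library, without passing the test. MICB, ULBP1, ULBP3 and CD58 overlapped between the groups. With edgeR's quasi-likelihood test and Benjamini-Hochberg adjustment over 13055 genes at a threshold of 0.05, 1 of the 7 was called, beside 2.21% of all genes tested in either direction and 1.98% with RC48 higher. With the GC content correction 2 of the 7 were called, ICAM1 and ULBP2, beside 7.2% of all genes. All 3 RC48 libraries were above all 3 Control libraries for 3 of the 7 genes, beside 17.4% of all genes tested. In bulk RNA, a change in every cell and a change in some of the cells cannot be told apart.

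**Figure D1:**
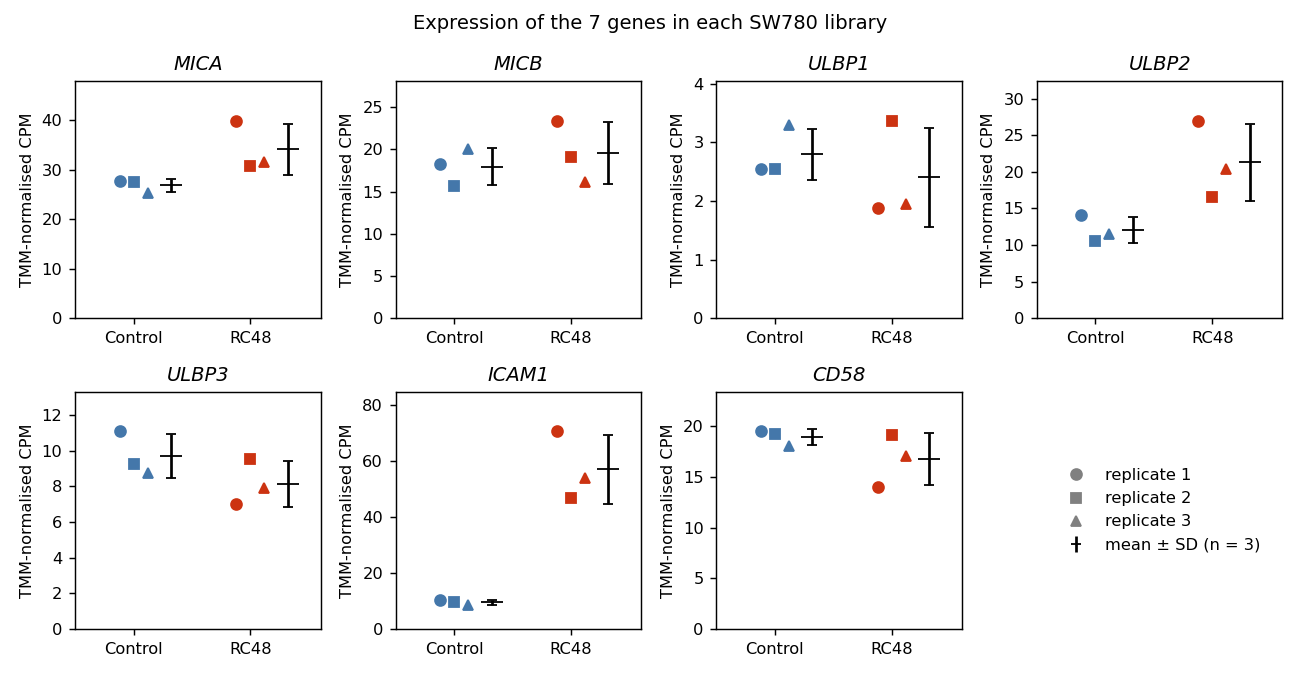
TMM-normalized CPM (vertical axis, from 0, with its own scale in each panel) of the 7 genes in each Control and RC48 library, with the symbol giving the replicate number and the bar the mean ± SD of 3 libraries. The ICAM1 points of RC48 lie between 46.6 and 70.5 CPM, far above the 8.48 to 10.4 CPM of Control, whereas MICB, ULBP1, ULBP3 and CD58 overlap.

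ICAM1 (NCBI gene 3383, chr19:10271120-10286615 in GRCh38.p14, plus strand) is the ligand of LFA-1 and an inducible adhesion protein of epithelial and endothelial cells. Its level was 10.4, 9.62 and 8.48 CPM in Control replicates 1, 2 and 3. In RC48 replicates 1, 2 and 3 it was 70.5, 46.6 and 53.7 CPM. The groups were far apart, with the lowest RC48 library well above the highest Control library and RC48 replicate 1 the highest of all. Over each group this gave 9.48 ± 0.943 CPM in Control and 56.9 ± 12.3 CPM in RC48 (SD, n = 3), from 489 and 2942 estimated counts. The log2 fold change was 2.58 (SE 0.19, 95% interval 2.14 to 3.03), with an adjusted p of 6.37e-04 by edgeR's quasi-likelihood test.

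The rise of ICAM1 was also present in the library without a GC trend. The transcripts of ICAM1 hold 59.0% GC, and genes of like GC content had a median log2 ratio of 0.48, 0.01 and 0.18 in RC48 replicates 1, 2 and 3. ICAM1 itself had log2 ratios of 2.77, 2.19 and 2.39. With the GC content correction the log2 fold change was 2.30 (SE 0.09), with an adjusted p of 6.95e-06 by edgeR. Each of the 23 alternative fits called ICAM1, and leaving out any 1 library gave log2 fold changes of 2.40 to 2.71. Among the 13055 genes tested, ICAM1 had rank 47 by log2 fold change.

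Some reads of ICAM1 could also be placed elsewhere. Of the 3789 stretches of 100 bases in its GENCODE release 29 transcripts, 716 (18.9%) also occur in the overlapping gene model AC011511.5. The way such reads were divided is not given in the sources used here.

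The promoter of ICAM1 is shown because ICAM1 is the 1 gene of the 7 called in the main fit. RELB, NFKB2 and STAT3, described further on, rose in the same libraries, and their role in the rise of ICAM1 was not tested. RefSeq promoters of GRCh38.p14 were found for 7 of 7 genes, and the 250 bases before the start were searched on both strands. The ICAM1 window is chr19:10270870-10271119 on the plus strand, written 5′ to 3′. The first run of capitals is GGAAATTCC, the form of the NF-kB motif known from this promoter, 186 to 178 bases before the start. The second is TTCCGGGAA, a match to the STAT motif TTCNNNGAA, 75 to 67 bases before the start.
ICAM1: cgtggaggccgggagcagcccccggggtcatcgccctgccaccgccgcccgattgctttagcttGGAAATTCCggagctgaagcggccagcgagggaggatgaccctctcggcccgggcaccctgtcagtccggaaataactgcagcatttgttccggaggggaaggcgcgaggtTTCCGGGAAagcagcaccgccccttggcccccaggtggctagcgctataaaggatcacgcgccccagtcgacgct
Of 27305 RefSeq promoter windows of this length, 0.428% hold GGAAATTCC and 6.78% hold TTCNNNGAA. Because GGAAATTCC was taken from this promoter, its match here was known in advance. Neither its share nor its absence from the windows of other genes is therefore a test. The general NF-kB consensus, held by 5.05%, has no match in the ICAM1 window. The ICAM1 window also holds TATAAA 30 to 25 bases before the start (11.1% of windows) and GGGCGG in 2 places on the minus strand (42.3% of windows). A match of letters is a description of the sequence and does not show that a factor bound there. The windows of ULBP1, ULBP2, ULBP3 and CD58 held none of GGAAATTCC, TTCNNNGAA, the NF-kB consensus or GAANNTTC.

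CD58 (NCBI gene 965, chr1:116514534-116571026, minus strand), the ligand of CD2, did not move with ICAM1. It lay at 19.5, 19.2 and 18 CPM in the Control libraries. In RC48 replicates 1, 2 and 3 it lay at 14.0, 19.1 and 17.1 CPM. RC48 replicate 1 was the lowest, and RC48 replicate 2 lay within the Control range. The means were 18.9 ± 0.797 and 16.7 ± 2.60 CPM (SD, n = 3), and the log2 fold change of -0.17 (95% interval -0.54 to 0.19) did not pass edgeR's test (adjusted p = 0.477). CD58 belongs to the group of genes lowest in GC (39.0%), and with the GC content correction its log2 fold change was 0.21 (95% interval -0.07 to 0.50), so the sign of its difference depends on that correction.

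ULBP2 (NCBI gene 80328, chr6:149942014-149949235, plus strand) had the largest fold change of the 5 NKG2D ligands. It is a ligand of NKG2D that is anchored in the membrane by a lipid and is readily shed. Its level was 14.1, 10.6 and 11.5 CPM in Control replicates 1, 2 and 3. In RC48 replicates 1, 2 and 3 it was 27.0, 16.6 and 20.4 CPM. The groups did not overlap, and RC48 replicate 2, the lowest of its group, lay just above the highest Control library. The means were 12.1 ± 1.81 and 21.3 ± 5.29 CPM (SD, n = 3), a 1.76-fold difference.

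The test of ULBP2 stood on both sides of the threshold. By edgeR's quasi-likelihood test the log2 fold change was 0.82 (SE 0.21, 95% interval 0.33 to 1.31) with an adjusted p of 0.12. With the GC content correction it was 0.90 (SE 0.22) with an adjusted p of 0.049. Of 23 alternatives, 8 called ULBP2 and 15 did not, and adjusted p ranged from 0.00609 to 0.443 over them. Those that called it include the fits under the GC content correction without RC48 replicate 1 or 2, which were not planned. Leaving out RC48 replicate 1 gave a log2 fold change of 0.61 (adjusted p = 0.0292 by edgeR), and leaving out RC48 replicate 2 gave 0.97 (adjusted p = 0.0185). Over all genes, these fits called 897 and 3726, where the main fit called 288. The limma fit in 5 libraries, which also called ULBP2, called 2854. The other 4 libraries left out in turn (Control replicates 1, 2 and 3 and RC48 replicate 3) gave adjusted p of 0.283, 0.443, 0.425 and 0.346. Genes of like GC content (46.9% in ULBP2) had median log2 ratios of -0.26, 0.03 and -0.08 in RC48 replicates 1, 2 and 3, where ULBP2 had 1.11, 0.43 and 0.72. All 3 ratios of ULBP2 were thus above the medians of genes of its GC content.

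ULBP2 has close relatives. Of 1250 stretches of 100 bases in its transcripts, 149 (11.9%) also occur in RAET1L or RAET1G, so its counts are uncertain to that extent. ULBP2, RAET1G and RAET1L together summed to 25.3 ± 2.46 CPM in Control and 42.3 ± 13.0 CPM in RC48 (SD, n = 3), 1.67 times as high.

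MICA (NCBI gene 100507436, chr6:31400711-31415315, plus strand) was the most abundant NKG2D ligand of the cells. Its level was 27.7, 27.5 and 25.3 CPM in the Control libraries. In RC48 replicates 1, 2 and 3 it was 39.9, 30.7 and 31.6 CPM. All RC48 libraries lay above all Control libraries, most of the distance coming from RC48 replicate 1. The means were 26.8 ± 1.31 and 34.0 ± 5.10 CPM (SD, n = 3), and the log2 fold change of 0.34 (SE 0.15) had an adjusted p of 0.26 by edgeR. With the GC content correction it was 0.19 (adjusted p = 0.214), and none of the 23 alternatives called MICA. Genes of like GC content (54.0%) had median log2 ratios of 0.31, 0 and 0.13 in RC48 replicates 1, 2 and 3. MICA had 0.56, 0.19 and 0.23, above these medians in all 3 libraries.

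MICB (NCBI gene 4277, chr6:31494918-31511124, plus strand), the closest relative of MICA, lay at 18.2, 15.6 and 20 CPM in the Control libraries. In RC48 replicates 1, 2 and 3 it lay at 23.4, 19.1 and 16.1 CPM. The groups overlapped, with RC48 replicate 3 below 2 of the Control libraries. The log2 fold change was 0.12 (95% interval -0.29 to 0.54, adjusted p = 0.66 by edgeR), and without RC48 replicate 1 it was -0.03. No stretch of 100 bases is shared between the transcripts of MICA or MICB and any other gene.

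The promoters of MICA and MICB are shown because they carry the same heat shock motif. Neither gene passed the test. The windows are chr6:31403345-31403594 and chr6:31497895-31498144, both on the plus strand and both before a start that lies inside the RefSeq gene span. Capitals mark GAATTTTC, a match to the heat shock motif GAANNTTC, which 5.85% of the windows hold.
MICA: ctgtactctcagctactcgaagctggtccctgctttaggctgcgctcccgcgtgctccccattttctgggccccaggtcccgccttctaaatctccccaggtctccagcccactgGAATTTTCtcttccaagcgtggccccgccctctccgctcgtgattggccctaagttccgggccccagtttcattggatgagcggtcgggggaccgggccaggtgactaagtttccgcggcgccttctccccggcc
MICB: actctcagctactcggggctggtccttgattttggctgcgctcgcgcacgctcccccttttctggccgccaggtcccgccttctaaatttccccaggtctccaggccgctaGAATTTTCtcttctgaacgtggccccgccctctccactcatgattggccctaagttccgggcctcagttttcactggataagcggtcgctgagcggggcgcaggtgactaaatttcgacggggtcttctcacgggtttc
The motif ends 128 bases before the start in MICA and 132 bases before it in MICB. HSF1, the main heat shock factor, had a log2 fold change of 0.34 (adjusted p = 0.292 by edgeR) and of 0.01 with the GC content correction. The activity of HSF1 and the use of the motif were not tested.

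ULBP1 had the lowest level of the 7 genes in both groups, and ULBP3 was near ICAM1 in Control. ULBP1 (NCBI gene 80329, chr6:149963943-149973715, plus strand) had 2.54, 2.55 and 3.30 CPM in Control and 1.88, 3.37 and 1.95 CPM in RC48, from 31 to 59 counts a library. RC48 replicate 2 was the highest of all 6 libraries, and the others of its group were the lowest. Its log2 fold change of -0.22 had a 95% interval of -0.86 to 0.43 (adjusted p = 0.613 by edgeR), so a fall or a rise within that interval is compatible with these libraries. With the GC content correction the log2 fold change of ULBP1 was 0.01. ULBP3 (NCBI gene 79465, chr6:150061053-150069121, minus strand) had 11.1, 9.27 and 8.77 CPM in Control and 6.99, 9.54 and 7.90 CPM in RC48. RC48 replicate 2 lay within the Control range and the other RC48 libraries below it. The log2 fold change of ULBP3 was -0.25 (95% interval -0.67 to 0.16, adjusted p = 0.388 by edgeR). With the GC content correction and without RC48 replicate 2 it was -0.65 (adjusted p = 0.0403), the 1 alternative of 23 that called it.

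**Figure D2:**
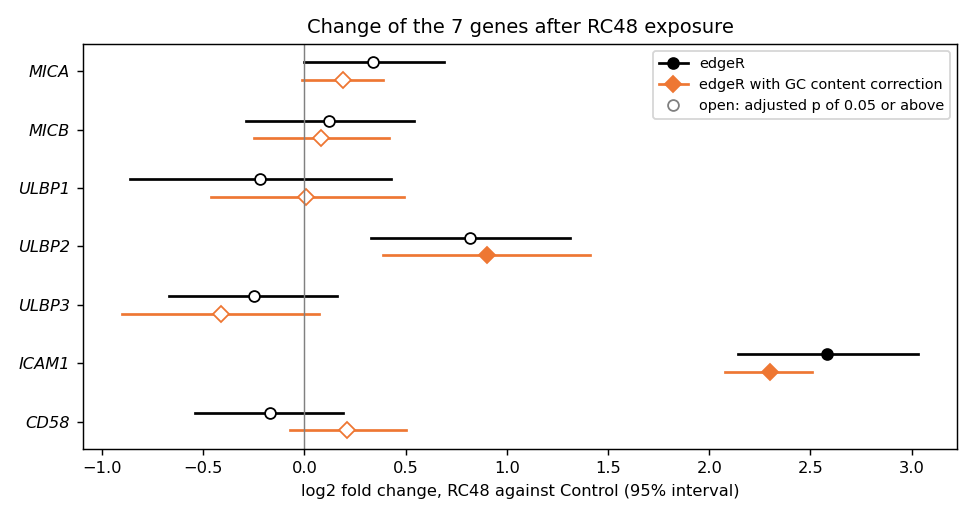
Log2 fold change of RC48 against Control (horizontal axis) with its 95% interval for each of the 7 genes, from edgeR and from edgeR with the GC content correction, with open symbols where the adjusted p was 0.05 or above. ICAM1 lies at 2.58 and 2.30, ULBP2 at 0.82 and 0.90 with the second filled, and CD58 and ULBP1 change sign between the fits.

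**Figure D3:**
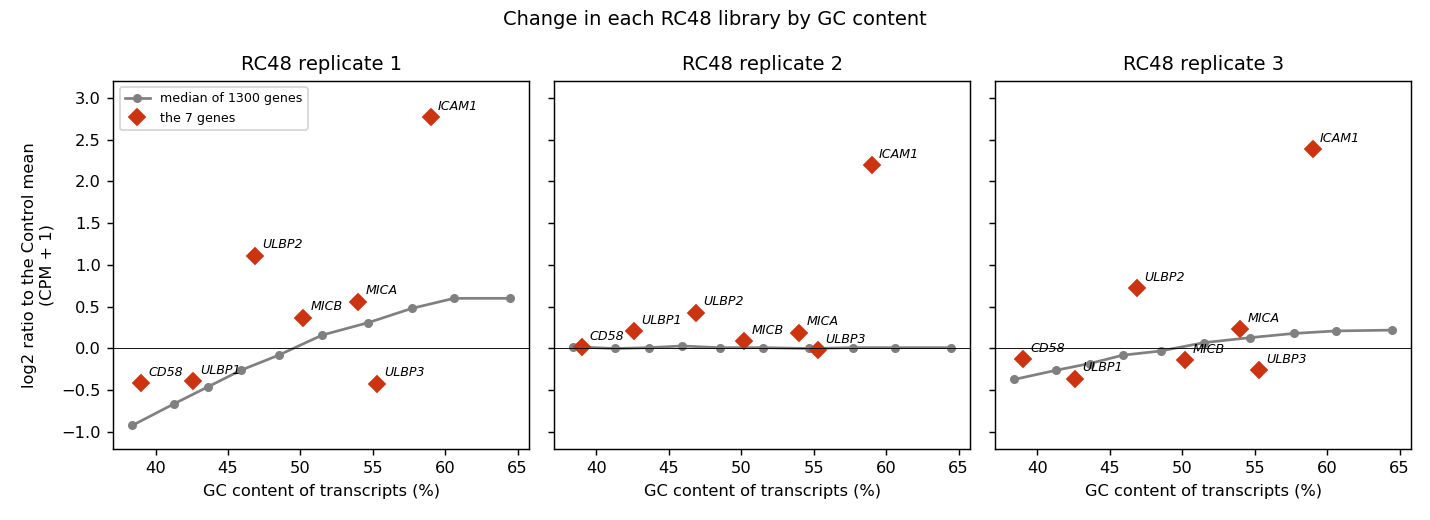
Log2 ratio of CPM + 1 in each RC48 library to the Control mean (vertical axis) against the GC content of transcripts in percent (horizontal axis), for the 7 genes (diamonds) and as medians of 10 groups of 1300 genes (line). ICAM1 and ULBP2 lie above the line in all 3 libraries, while CD58 at 39.0% GC follows its direction in RC48 replicates 1 and 3.

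The 5 NKG2D ligands did not share a direction. Their log2 fold changes ran from -0.25 to 0.82 with a median of 0.12, where the median of all genes tested was 0.02, and 0 of 5 were called by edgeR's quasi-likelihood test (ULBP2 had an unadjusted p of 0.00514, the 1 under 0.05, where 19.1% of all genes tested were, and was called with the GC content correction and by DESeq2). Summed over the 5 genes, the level was 73.6, 65.5 and 69.0 CPM in Control replicates 1, 2 and 3. In RC48 replicates 1, 2 and 3 the sum was 99.3, 79.2 and 78.0 CPM. The sums did not overlap, where every RC48 library was above every Control library for 17.4% of all single genes tested. The means of 69.4 ± 4.05 and 85.5 ± 11.9 CPM (SD, n = 3) stood in a ratio of 1.23. The highest sum was that of RC48 replicate 1, the library with the strongest GC trend, and the sums were not corrected for GC content.

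Per transcript length, MICA was the most abundant of the 7 genes in both groups. In Control, TPM was 45.0 ± 0.439 for MICA, 42.1 ± 0.690 for CD58, 20.9 ± 3.0 for ULBP2, 15.1 ± 2.61 for MICB, 6.25 ± 0.349 for ICAM1, 6.08 ± 0.586 for ULBP3 and 1.72 ± 0.350 for ULBP1 (SD, n = 3). The ranges of ULBP2 and MICB overlapped, as did those of ICAM1 and ULBP3, and no other neighbors did. In RC48, where the TPM of replicate 2 was computed from its counts, ICAM1 moved from the fifth place to the second, at 35.3 ± 5.14 TPM. MICA stood at 52.4 ± 3.35 TPM above it. The ranges of ICAM1, CD58 (34.2 ± 9.60 TPM) and ULBP2 (33.5 ± 4.95 TPM) overlapped, so their order is not resolved. MICB (15.4 ± 2.37 TPM), ULBP3 (4.87 ± 1.11 TPM) and ULBP1 (1.40 ± 0.580 TPM) followed in the same order as in Control.

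**Figure D4:**
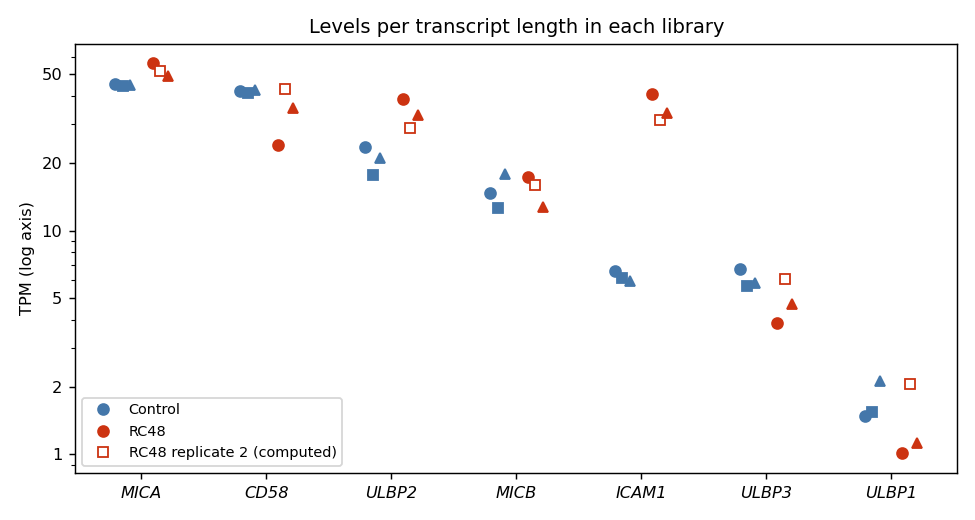
TPM on a log axis (vertical) of the 7 genes, ordered by their Control mean, in each Control and RC48 library; circles, squares and triangles are replicates 1, 2 and 3, and the open squares are the computed values of RC48 replicate 2. ICAM1 moves from between 5.96 and 6.64 TPM in Control to between 31.2 and 41.1 TPM in RC48, beside CD58 and ULBP2.

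The remaining NKG2D ligands are RAET1E, RAET1G and RAET1L, of which 2 could be tested and 0 were called. RAET1E was lower in every RC48 library than in every Control library, as were 14.1% of all genes tested. Its level was 9.37 ± 0.441 CPM in Control and 6.59 ± 1.04 CPM in RC48 (log2 fold change -0.51, adjusted p = 0.191 by edgeR). RAET1G was at 13.1 ± 1.21 and 20.6 ± 7.62 CPM with overlapping groups (log2 fold change 0.65, adjusted p = 0.245). RAET1L had 5.01 estimated counts in Control and 16.88 in RC48, too few to be tested. Neither RAET1E nor RAET1G passed the adjusted test, though both had an unadjusted p under 0.05 (19.1% of all genes did), and DESeq2 called 0 as well.

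Ligands of other activating NK receptors gave 0 calls among the 7 tested by edgeR (2 at an unadjusted p under 0.05, beside 19.1% of all genes tested) and 0 by DESeq2. Their median log2 fold change was 0.03. PVR and NECTIN2 are ligands of DNAM-1. PVR lay at 103 ± 4.23 CPM in Control and 107 ± 7.64 CPM in RC48. NECTIN2 lay at 213 ± 13.4 and 295 ± 40.6 CPM, with every RC48 library above every Control library, as for 17.4% of all genes tested. Its log2 fold change of 0.47 had an adjusted p of 0.154 by edgeR and was 0.17 with the GC content correction. NCR3LG1, the ligand of NKp30, had 28 counts in Control and 27 in RC48 and was not tested.

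Among ligands of inhibitory NK receptors, several members rose. Of 11 tested, 4 were called higher after RC48 exposure by edgeR's quasi-likelihood test and 0 lower, where 1.98% of all genes were called higher. The median log2 fold change was 0.51. The lists were chosen with earlier results of these data known, so the share called is a description and not a test. HLA-F rose from 12.8 ± 1.23 to 28.7 ± 6.38 CPM (log2 fold change 1.17, adjusted p = 0.0246). HLA-B rose from 161 ± 9.36 to 312 ± 35.2 CPM (0.95, adjusted p = 0.00979). Both are class I heavy chains, and reads of these similar genes are divided by estimation, so their single values are uncertain. B2M, the light chain of class I molecules, rose from 397 ± 26.5 to 609 ± 16.6 CPM (0.62, adjusted p = 0.0326). CDH2, an adhesion protein read by the inhibitory receptor KLRG1, rose from 13.1 ± 0.470 to 22.0 ± 2.16 CPM (0.74, adjusted p = 0.0393). HLA-E, the ligand of NKG2A, had a log2 fold change of 0.51 (adjusted p = 0.126) and of 0.34 with the GC content correction (adjusted p = 0.0368). The GC content correction, which called 7.2% of all genes, and DESeq2, which called 681 genes, each called HLA-E and the 4 genes above.

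The other integrin and adhesion ligands gave 0 calls among 11 tested by edgeR (2 at an unadjusted p under 0.05) and 0 by DESeq2, with a median log2 fold change of 0.08. ICAM2, which also binds LFA-1, lay at 1.01 ± 0.367 CPM in Control and 1.18 ± 0.294 CPM in RC48. Enzymes and inhibitors linked to the shedding of NK ligands gave 0 calls among 9 tested by edgeR (3 at an unadjusted p under 0.05), 2 with the GC content correction and 3 by DESeq2. Over all genes tested, 19.1% had an unadjusted p under 0.05, 7.2% were called with the GC content correction, and DESeq2 called 681 genes. ADAM10 and ADAM17, proteases that cleave NKG2D ligands, had log2 fold changes of -0.30 (adjusted p = 0.362 by edgeR) and -0.10 (adjusted p = 0.66). MMP14, a membrane protease that cleaves MICA, lay at 481 ± 8.91 CPM in Control and 767 ± 158 CPM in RC48. Every RC48 library was above every Control library, as for 17.4% of all genes tested. The log2 fold change of MMP14 was 0.67 (adjusted p = 0.0878 by edgeR) and 0.38 with the GC content correction (adjusted p = 0.0166).

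Of 17 regulators linked to the ligands, all tested, 3 were called higher and 0 lower by edgeR's quasi-likelihood test. At an unadjusted p under 0.05 were 9 of the 17, beside 19.1% of all genes tested. RELB, a subunit of non-canonical NF-kB, rose from 8.36 ± 1.14 to 65.1 ± 16.4 CPM (log2 fold change 2.96, SE 0.22, adjusted p = 6.37e-04 by edgeR). NFKB2, the precursor of its partner p52, rose from 25.9 ± 2.64 to 105 ± 22.7 CPM (2.02, adjusted p = 0.00181). STAT3, a transcription factor of cytokine signaling, rose from 158 ± 15.1 to 241 ± 9.38 CPM (0.61, adjusted p = 0.044). The other NF-kB subunits were not called in edgeR's main fit. Their log2 fold changes were 0.37 for NFKB1 (adjusted p = 0.154), 0.16 for RELA (adjusted p = 0.371) and -0.57 for REL (adjusted p = 0.304). The 3 calls stand beside 2.21% of all genes. The median of the 17 was 0.16. With the GC content correction 5 were called higher, NFKB1 among them (adjusted p = 0.025 by edgeR), and 3 lower (SP1, E2F1 and CHEK1), beside 7.2% of all genes. The role of these regulators in the rise of ICAM1 was not tested.

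**Figure D5:**
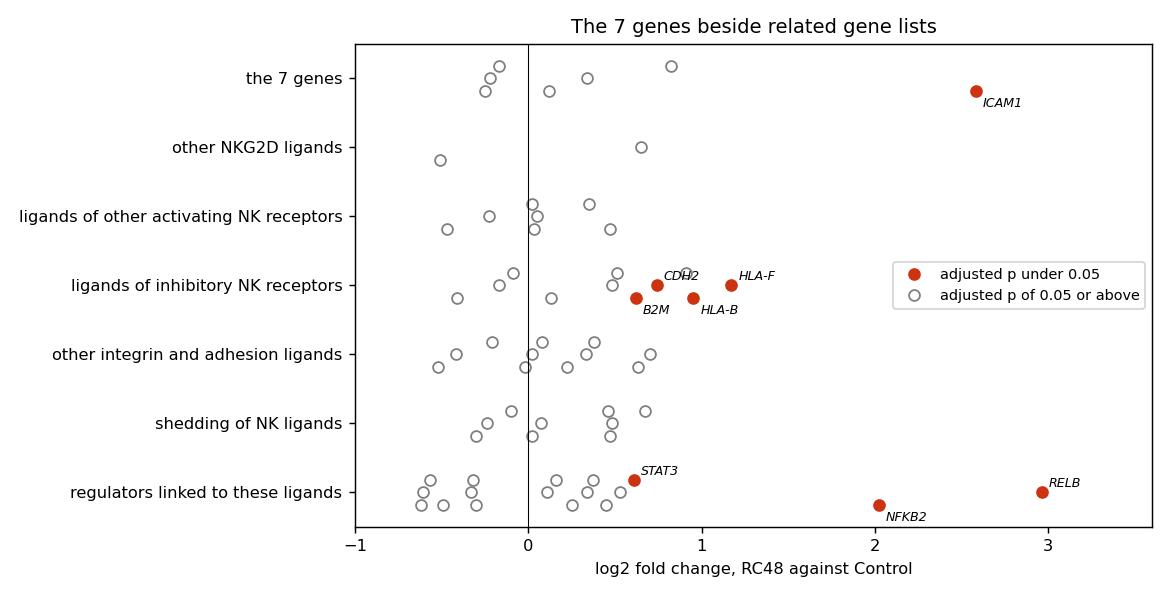
Log2 fold change of RC48 against Control (horizontal axis) for each tested gene of the 7 and of 6 related gene lists (rows, spread vertically for legibility), filled and named where edgeR's adjusted p was under 0.05. ICAM1 at 2.58 lies near NFKB2 at 2.02 and RELB at 2.96, the 4 named ligands of inhibitory receptors lie between 0.62 and 1.17, and the remaining NKG2D, activating and adhesion ligands are open.

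The genes whose pattern over the 6 libraries was nearest to that of ICAM1 were SERPINA1, LOC102723996, GPRC5B, CST4 and ICOSLG. Likeness was the root mean squared difference of log2(CPM + 1), each gene taken relative to its Control mean, and was 0.121 to 0.233 for the 5 genes among 12558 candidates. SERPINA1, a secreted protease inhibitor, lay at 1.68 to 2.37 CPM in Control and 13.5 to 18.3 CPM in RC48. LOC102723996 is annotated as a further copy of ICOSLG, so the counts of both are uncertain. ICOSLG, the ligand of the T cell costimulator ICOS, lay at 0.927 to 1.88 CPM in Control and 9.54 to 15.4 CPM in RC48. All 5 genes were called by edgeR with log2 fold changes of 2.70 to 3.84. For ULBP2 the nearest genes were IL16, NLRC5 and PRR5L (0.0810 to 0.0881), with log2 fold changes of 0.90 to 1.04 and adjusted p of 0.066 to 0.0906 by edgeR, so that they too missed the threshold. NLRC5 is the transactivator of class I genes.

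Markers of the cell line and of other cells were examined beside these results. Of 5 epithelial and 4 basal markers, 0 were called by edgeR or DESeq2, with 1 of each list at an unadjusted p under 0.05. KRT20 was the 1 of 6 tested luminal markers that was called, and it fell by 1.55 on the log2 scale (adjusted p = 0.0489 by edgeR). Its level was low, at 1.98 CPM in Control and 0.667 CPM in RC48, from 102 and 35 counts. DESeq2 and the GC content correction each called 2 luminal markers lower. Beside these and the other marker lists, 19.1% of all genes tested had an unadjusted p under 0.05. The GC content correction called 7.2% of all genes, and DESeq2 called 681 genes. The luminal factors GATA3 and FOXA1 had log2 fold changes of 0.10 (adjusted p = 0.668 by edgeR) and -0.44 (adjusted p = 0.194). FOXA1 was lower in every RC48 library than in every Control library, as were 14.1% of all genes tested. The 7 listed of 12 leukocyte markers summed to 2.31 to 2.89 CPM in Control and 2.40 to 5.83 CPM in RC48, with 0 calls by edgeR or DESeq2 among 3 tested (1 at an unadjusted p under 0.05). PTPRC, which marks leukocytes, had 0 counts in Control and 2 in RC48. CD3E, named after its values were seen, had 16 and 51 counts and was called with the GC content correction (adjusted p just under 0.05). The 3 endothelial markers summed to 27.9 to 29.7 CPM in Control and 18.4 to 24.9 CPM in RC48. The sum was lower in RC48, and within RC48 it was highest in replicate 1, as ICAM1 was. By edgeR 0 of the 3 were called (1 at an unadjusted p under 0.05), DESeq2 called 0, and with the GC content correction 2 were lower. The 1 fibroblast marker tested was not called by edgeR and was called higher by DESeq2. The part of other cells in the values of ICAM1 was not tested. The receptors of the 7 genes were at or near the floor in these libraries. KLRK1, which encodes NKG2D, had 12.6 counts in Control and 15 in RC48, ITGB2 had 3 and 4, and ITGAL had 58 and 55.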

How the data were processed

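RNA of SW780 cells was measured in 3 Control and 3 RC48 libraries, grouped by GEO's labels. The authors cleaned the reads (SOAPnuke), aligned them (Bowtie2) and deposited the estimated counts of RSEM, which are not normalized. The authors' TPM values, normalized for length and library size, were used for 5 libraries. Versions and the annotation are not given in the sources used here, and the submitters' processing notes name hg38. Between 11.7% and 15.0% of a library's estimated counts were not whole. For RC48 replicate 2, TPM was derived here by dividing counts by effective lengths, which were read from the other libraries (genes with 20 or more counts and 1 or more TPM). Applied to RC48 replicate 3, this differed from the deposited TPM by a median absolute log2 difference of 0.0368 over 11960 genes.

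Estimated counts were rounded, filtered with filterByExpr, normalized by TMM and tested with edgeR 4.0.16's quasi-likelihood test in R 4.3.3, without covariates, on all genes, with Benjamini-Hochberg adjustment at 0.05. The study itself used limma on log2(TPM+1), which is an alternative here. The other alternatives were limma on 6 libraries with pseudocounts of 1 and 0.1 (limma 3.58.1), DESeq2 1.42.0, RLE size factors, plain library sizes, a filter of 10 counts in each library or none, a GC content correction (loess trend of log2 CPM, span 0.3, as an offset), a replicate block with and without it, and each library left out. Leaving out libraries under the GC content correction was added after the data were seen. GC content came from GENCODE release 29 (99.4% of genes), and positions and promoters from RefSeq GRCh38.p14. The scripts were tested on simulated data. Tables and figures were made with Python 3.11.15, pandas 2.3.3, numpy 2.4.6, scipy 1.17.1 and matplotlib 3.10.9.

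Named are the 7 genes, up to 4 called genes of each list by size of change, key genes set by role, and the 5 (ICAM1) or 3 (others) genes nearest in pattern with a mean of at least 1 CPM, of which those of ICAM1 and ULBP2 are given. HSF1, GATA3, FOXA1, CD3E, NFKB1, RELA, REL, SP1, E2F1 and CHEK1 are named besides. The rule for the 7 genes uses no measured value, but the genes and lists were chosen with earlier results of these data known. Library totals were 16453233 to 17988030 counts, libraries of a group differed by more than sampling noise, and intervals are those of the fits.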

Additional observations from a re-analysis of the deposited data

How the results depend on the processing

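The 23 alternatives, of which 17 were planned, kept the direction of ICAM1, ULBP2, MICA and ULBP3. ICAM1 was called in all of them and MICA in none. Genes called numbered 288, against 681 with DESeq2, 2854 with limma on log2(TPM+1) in 5 libraries, 936 with the GC content correction and 686 with the replicate block and GC content correction. Leaving out a library gave 68 to 3726 genes, and with the GC content correction 285 to 2139 (1573 without RC48 replicate 1). The highest count, 3726, came without RC48 replicate 2 and the lowest, 68, without Control replicate 3. Of the 7 genes, 2 were called with DESeq2, limma in 5 libraries, the GC content correction and the replicate block with that correction. Leaving out a library gave 1 to 2 of the 7, and with the GC content correction 1 to 3. The cause was not tested.

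CD58 changed sign with the GC content correction (0.21), the replicate block with it (0.21) and under it without Control replicate 1, 2 or 3 (0.24, 0.23 and 0.16) and without RC48 replicate 1, 2 or 3 (0.09, 0.31 and 0.20). ULBP1 gave 0.01 with the correction, 0.00207 with the replicate block and the correction, and under it 0.02 without RC48 replicate 1 and 0.13 without Control or RC48 replicate 3. MICB gave -0.00133 with limma in 5 libraries, -0.03 to 0.22 with a library left out, lowest without RC48 replicate 1, and under the correction -0.00226 without Control replicate 2 and -0.06 without RC48 replicate 1. None of these was called.

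The labels share replicate numbers between the groups. Deviations from the group means of same-numbered libraries correlated at 0.043, -0.184 and -0.023. Of 6 libraries, 0 correlated best with the library of their own number. With 3 libraries a group, and a GC trend in RC48 replicates 1 and 3, these values cannot tell whether same-numbered libraries were paired. The replicate block called 331 genes and 1 of the 7. ULBP2 had an adjusted p of 0.0544 by edgeR with the block and of 0.00609 with the block and the GC content correction. The RC48 libraries differed among themselves by more than sampling noise, and ULBP1 had 31 to 59 counts a library.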
